A study of Rattus norvegicus with 6 samples.

Results

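The 10 genes described here are the immediate-early response genes Ier2, Ier3 and Ier5, the NR4A orphan nuclear receptors Nr4a1, Nr4a2 and Nr4a3, the pleckstrin homology-like domain genes Phlda1, Phlda2 and Phlda3, and Srf, which encodes serum response factor. They were chosen by gene symbol from the 17327 symbols listed, of which 13129 had a read in any sample. All 10 were listed in every sample. Of these, 9 had enough counts to be tested, among 9740 genes tested in all, and Phlda2 did not. The cells were primary Schwann cells, the glia that ensheath and myelinate peripheral axons, from sciatic nerves of adult female Wistar rats. Both groups were starved for 18 h in medium with 2% FBS and 10 µM forskolin, an agent that raises cAMP, and forskolin stayed present in both during the 6 h of stimulation. The 3 NRG1 samples received 10 nM recombinant soluble NRG1β1, a ligand of the ErbB3 receptor, and the 3 mock samples the buffer with albumin alone. Before starvation all cells had been grown, according to the paper, in medium with serum, forskolin and soluble NRG1β1. Mock samples had therefore met NRG1 earlier and were without added NRG1 only from starvation on. Each of 3 independent cell preparations, called cultures 1, 2 and 3 after the number in the sample titles, gave 1 mock and 1 NRG1 sample. As a model the cells were limited in that they had lost contact with axons, and only 1 time point was measured.

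Immediate-early genes are transcribed within minutes of a stimulus from factors already present in the cell, such as SRF with its ternary complex partners, and CREB, which responds to cAMP. The NR4A proteins are nuclear receptors whose activity depends mainly on their amount and modification rather than on a known natural ligand, and they are familiar products of cAMP signalling. PHLDA proteins carry a pleckstrin homology-like domain, PHLDA1 is known as a response gene and inhibitor of ErbB and insulin receptor signalling, and PHLDA3 as a p53-induced inhibitor of Akt. IER2 and IER5 are related nuclear proteins, while IER3 acts in survival signalling downstream of ERK.

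To show which letters stand before the start sites, promoter sequences were taken from RefSeq on the GRCr8 build, whereas the reads had been counted on the rn5 build. Of the 10 genes, 8 were matched by symbol, and Ier3 and Nr4a3 were not. The 5 printed here span the 250 bases before the start, 5′ to 3′ on the strand of the gene. Phlda1 and Nr4a2 are shown because they were the called genes, Nr4a1 as the receptor next to Nr4a2 in the family, and Ier2 and Srf for their cAMP response element and CArG boxes. Capitals mark the SP1 motif GGGCGG in Phlda1 (chr7:48853440-48853689, plus strand), and the core TGACG of the cAMP response element (CRE) in Nr4a1 (chr7:134259888-134260137, plus strand) and Nr4a2 (chr3:62104888-62105137, minus strand). In Ier2 (chr19:40399123-40399372, plus strand) they mark the full element TGACGTCA, and in Srf (chr9:21923826-21924075, plus strand) the CArG box, the site that SRF binds. A motif found on the opposite strand appears as its reverse complement.
Phlda1: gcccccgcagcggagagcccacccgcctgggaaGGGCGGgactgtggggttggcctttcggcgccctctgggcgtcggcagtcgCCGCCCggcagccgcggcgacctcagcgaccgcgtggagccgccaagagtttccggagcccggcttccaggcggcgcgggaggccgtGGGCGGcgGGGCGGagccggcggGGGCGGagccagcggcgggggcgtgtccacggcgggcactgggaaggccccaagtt
Nr4a1: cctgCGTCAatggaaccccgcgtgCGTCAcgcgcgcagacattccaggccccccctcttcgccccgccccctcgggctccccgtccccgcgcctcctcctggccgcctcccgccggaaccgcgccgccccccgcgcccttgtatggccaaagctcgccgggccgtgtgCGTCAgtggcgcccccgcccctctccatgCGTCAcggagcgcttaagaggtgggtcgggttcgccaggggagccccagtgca
Nr4a2: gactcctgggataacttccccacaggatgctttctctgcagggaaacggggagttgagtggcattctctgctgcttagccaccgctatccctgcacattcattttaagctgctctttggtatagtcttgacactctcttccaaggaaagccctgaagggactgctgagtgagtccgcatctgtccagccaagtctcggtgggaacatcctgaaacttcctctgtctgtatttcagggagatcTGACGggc
Ier2: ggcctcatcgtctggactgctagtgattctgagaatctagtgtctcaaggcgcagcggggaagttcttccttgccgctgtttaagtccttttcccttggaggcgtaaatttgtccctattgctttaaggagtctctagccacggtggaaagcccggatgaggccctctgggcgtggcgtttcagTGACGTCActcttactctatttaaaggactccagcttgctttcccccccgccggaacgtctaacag
Srf: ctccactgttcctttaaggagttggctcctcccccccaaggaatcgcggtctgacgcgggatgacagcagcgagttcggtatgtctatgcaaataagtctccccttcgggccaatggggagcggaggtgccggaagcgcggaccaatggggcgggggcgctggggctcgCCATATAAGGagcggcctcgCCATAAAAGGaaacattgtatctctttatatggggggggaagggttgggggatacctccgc

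The search covered both strands over 300 bases, from 250 before to 50 after each start, and is a description of letters only. Only the first listed start of each symbol was used, so any other start of a gene was not searched. The Phlda1 window held 5 SP1 motifs, and its printed stretch was 78.8% G and C. SP1 motifs stood in 6 of the 8 windows, namely those of Ier5, Nr4a1, Phlda1, Phlda2, Phlda3 and Srf, and in 34.9% of all promoters of the table or 65.1% of those of genes tested here. The CRE core, which the full element also contains, was in 5 of the 8 windows, those of Ier2, Nr4a1, Nr4a2, Phlda2 and Srf, and in 21.96% of all promoters or 34.0% of those of tested genes. Nr4a1 held it 4 times, and in Nr4a2 it lay 8 to 4 bases before the start. Ier2 alone of the 8 held the full element, at 66 to 59 bases before the start, against 1.91% of all promoters and 3.56% of those of tested genes. CArG boxes were found in Phlda2 and, at 2 positions, in Srf itself, against 1.64% of all promoters and 1.18% of those of tested genes. The NR4A monomer site AAAGGTCA, the AP-1 motif TGANTCA and the EGR motif GCGTGGGCG were in none of the 8 windows. They were in 1.29%, 7.33% and 0.590% of all promoters, respectively, and in 0.856%, 4.52% and 1.15% of those of tested genes. The letters TATAAA occurred in the windows of Ier5 and Srf and in 14.3% of all promoters or 5.90% of those of tested genes.

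Counts on genes ranged from 6821590 to 15475018 per sample. Levels are given as CPM, read counts scaled to a common library size after TMM normalization but not per length of the gene, so they can be compared between samples but not between genes. Culture 1 stood apart from the others. Its libraries lay alone on the principal component that held 68.0% of the variance, while the next, with 19.0%, separated NRG1 from mock. Fibroblast markers, led by Col1a1 and Col3a1, summed to 53472 and 57754 CPM in culture 1 against 13697 to 22339 CPM in the other libraries, and 9 of the 12 were higher in both libraries of culture 1. In cultures 2 and 3 most of that sum was Col1a1, at 13413 to 21494 CPM. Pdgfra stood at 870 and 827 CPM in culture 1 and at most 1.61 CPM elsewhere. Tcf21 was at 0 throughout and Col1a2 had at most 2 counts in any sample. Thy1, Dcn and Lum were at 0 in cultures 2 and 3, and Thy1 stood at 1268 and 1143 CPM in culture 1. Smooth muscle and pericyte markers, led by Tagln and Acta2, summed to 5054 and 5062 CPM in culture 1 against 316 to 629 CPM, with 7 of 8 higher. Schwann cell markers, among them Ngfr, summed to 7583 and 5646 CPM in culture 1 against 14150 to 19619 CPM, with 8 of 12 lower. Macrophage markers such as Cd68 and Cd14 reached at most 10.8 CPM summed, with Ptprc and C1qa at 0, and endothelial markers such as Tek and Egfl7 at most 20.3 CPM, with Pecam1 and Cdh5 at 0. Between groups, the fibroblast sum spanned 14072 to 53472 CPM in mock and 13697 to 57754 CPM in NRG1 samples, and the Schwann cell sum 7583 to 19619 and 5646 to 14389 CPM. With NRG1, 5 of the 12 Schwann cell markers fell, among them Egr2 and S100b, and none rose, while none of the 5 tested fibroblast markers was called. The part of other cell types in the results below was not tested, and fewer cells of a type cannot be told apart from less RNA per cell. Each comparison was therefore made within cultures, and the fitted value of each of the 9 genes is given also without culture 1.

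After 6 h of NRG1, Phlda1 rose and Nr4a2 fell, while the other 7 tested genes were not called. Both fitted changes were over 2-fold in the fit over all cultures, with 95% intervals that also held smaller changes. A gene was called at an adjusted p of at most 0.01 from edgeR's quasi-likelihood test with Benjamini-Hochberg adjustment over all genes tested, with the culture as a block. At that threshold 1 of the 9 genes was higher with NRG1, beside 6.31% of all genes tested, and 1 was lower, beside 5.51%. With the added demand of a change over 2-fold the same genes remained, 1 in each direction, beside 1.56% higher and 1.91% lower of all genes tested. At an adjusted p of at most 0.05 Ier2 joined Phlda1 among the higher genes, 2 of 9 beside 11.5%, and Nr4a1 joined Nr4a2 among the lower ones, 2 of 9 beside 11.7%. The median log2 fold change was 0.16 over the 9 genes and -0.03 over all genes tested. With edgeR these calls needed the pairing. When the culture was left out of the model, edgeR called no gene, the adjusted p-values of Phlda1 and Nr4a2 were 0.163 and 0.204, and 1334 genes, among them 2 of the 9, had an unadjusted p under 0.05. DESeq2 without the culture still called Phlda1 (adjusted p = 0.000117) but not Nr4a2 (0.0196).

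**Figure D1:**
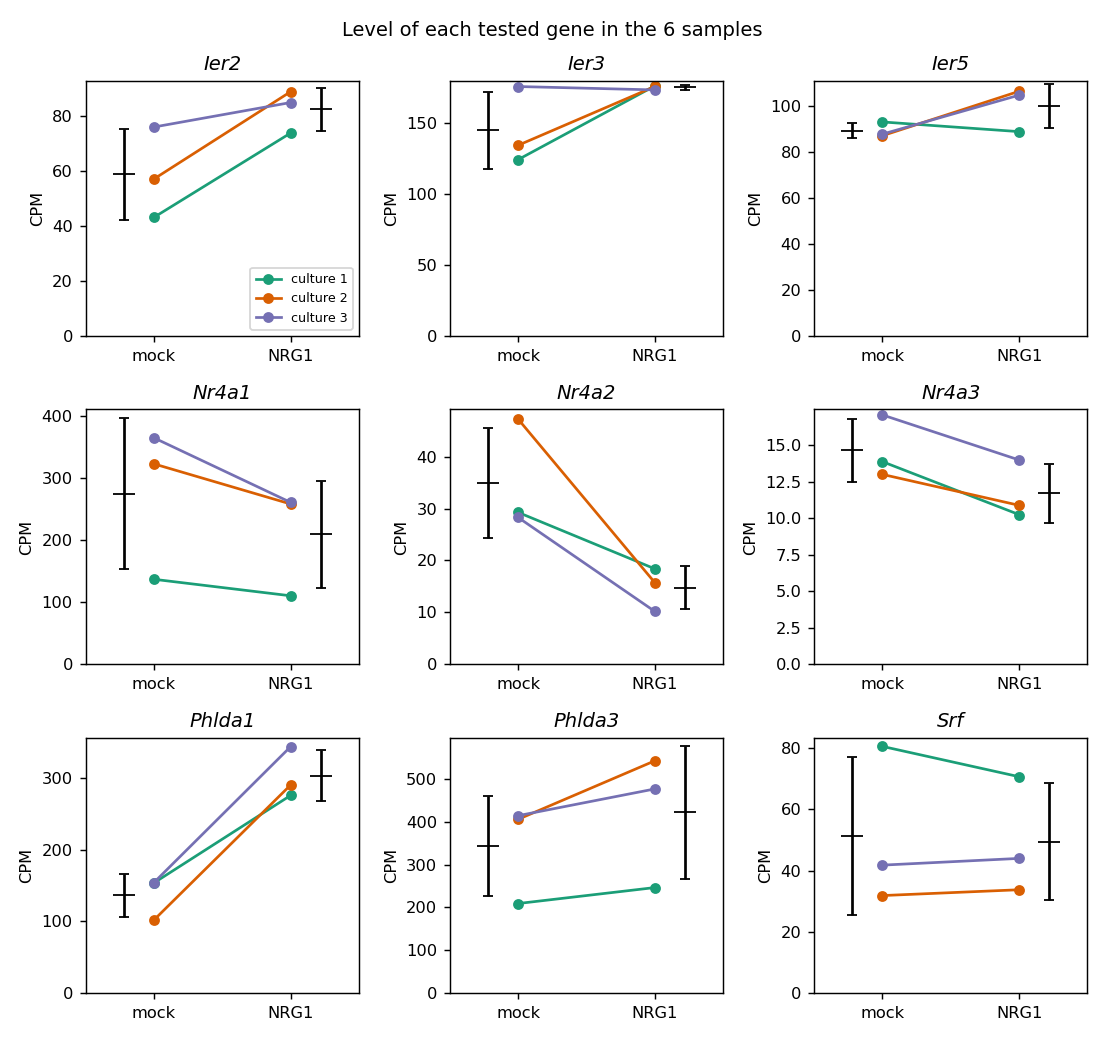
Levels of the 9 tested genes in CPM (vertical axes, from 0) in mock and NRG1 samples, with a line joining the samples of 1 culture and bars for the mean and SD of 3 samples. The lines of Phlda1 climb in every culture, from at most 154.1 CPM to at least 276.0 CPM, and those of all 3 NR4A genes descend, while Nr4a1, Phlda3 and Srf are separated mainly by culture.

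Phlda1 was the clearest of the PHLDA genes. Its level was 153.7, 101.8 and 154.1 CPM in mock samples of cultures 1, 2 and 3, and 276.0, 290.5 and 344.1 CPM with NRG1. Every NRG1 sample exceeded every mock sample, and the groups lay far apart compared with the spread inside either of them. Means were 136.5 ± 30.1 CPM in mock and 303.5 ± 35.9 CPM in NRG1 samples (SD, n = 3). The log2 fold change was 1.17 (SE 0.14, adjusted p = 5.4e-05, edgeR quasi-likelihood), a 2.25-fold rise with a 95% interval of 1.83 to 2.76. Within cultures the log2 ratio was 0.84, 1.51 and 1.16, so that the smallest rise was in culture 1. Without culture 1 the log2 fold change was 1.34, with a larger SE of 0.18. The adjusted p was smaller all the same, at 3.1e-11, so p-values cannot be compared between these fits as strength of evidence. By unadjusted p, Phlda1 ranked 104 of all genes tested.

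Phlda3, the Akt inhibitor induced by p53, did not pass the threshold. It stood at 209.2, 406.3 and 414.9 CPM in mock samples and at 246.6, 543.4 and 477.5 CPM with NRG1. The NRG1 sample was the higher one in each culture, but both libraries of culture 1 lay below all of the others, and the groups overlapped. A log2 fold change of 0.29 was fitted (95% interval 0.03 to 0.54, adjusted p = 0.102), and 0.31 without culture 1. Phlda1 counts per 100 Phlda3 counts were 73.4, 25.1 and 37.1 in mock samples and 111.9, 53.5 and 72.1 with NRG1. This ratio was larger with NRG1 in each culture, by 0.61, 1.09 and 0.96 on the log2 scale in cultures 1, 2 and 3 (mean 0.89, SD 0.25), and the exact two-sided sign-flip test gave p = 0.25, the smallest value that 3 pairs allow.

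Phlda2, an imprinted member of the family known from placenta, was barely counted. It had 3, 0 and 1 reads in mock samples and the same 3, 0 and 1 reads in NRG1 samples of cultures 1, 2 and 3. None of these exceeded the 3 counts taken as the limit of detection, and no fold change is given.

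Among the NR4A receptors, Nr4a2, also called Nurr1, was the one called. Its levels were 29.3, 47.2 and 28.3 CPM in mock samples and 18.4, 15.7 and 10.2 CPM with NRG1. All NRG1 samples were below all mock samples, with the highest mock value in culture 2 and the lowest NRG1 value in culture 3. Means were 34.9 ± 10.7 CPM in mock and 14.8 ± 4.18 CPM in NRG1 samples (SD, n = 3). The log2 fold change was -1.25 (SE 0.18, adjusted p = 0.000223, edgeR quasi-likelihood), which left 0.420 of the mock level, with a 95% interval of 0.323 to 0.546. Within cultures it was -0.66, -1.57 and -1.45, again least in culture 1, and whether culture 1 differed from the others was not tested, since each culture gave 1 pair. Without culture 1 the log2 fold change was -1.52, with a larger SE of 0.21. Its adjusted p of 8.6e-11 is, as for Phlda1, not comparable with that of the fit over all cultures.

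Nr4a1, also called Nur77, stood at 137.1, 322.9 and 364.8 CPM in mock samples and at 110.5, 258.3 and 260.9 CPM with NRG1. The groups overlapped, with culture 1 low in both, yet within each culture the NRG1 sample was the lower one. Its log2 fold change was -0.37 (95% interval -0.63 to -0.12, adjusted p = 0.0343), with log2 ratios of -0.31, -0.32 and -0.48 in the 3 cultures. Without culture 1 it was -0.40, with an adjusted p of 0.103. Nr4a3, also called Nor1, is the remaining receptor, with 13.9, 13.0 and 17.1 CPM in mock samples and 10.3, 10.9 and 14.0 CPM with NRG1. Here too each culture had less with NRG1, by a log2 ratio of -0.43, -0.25 and -0.28, and the groups overlapped through culture 3. The fitted value was -0.32 (95% interval -0.68 to 0.04, adjusted p = 0.183) and, without culture 1, -0.27.

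The same sign in every culture was common among all genes. Genes lower with NRG1 in all 3 pairs were 3 of the 9, the NR4A receptors, beside 30.0% of all genes tested, and genes higher in all 3 pairs were also 3 of the 9, Ier2, Phlda1 and Phlda3, beside 25.9%. Groups without any overlap were rarer. Phlda1 was the 1 gene of the 9 with all NRG1 samples above all mock samples, beside 10.2% of all genes tested, and Nr4a2 the 1 gene with all of them below, beside 9.94%.

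**Figure D2:**
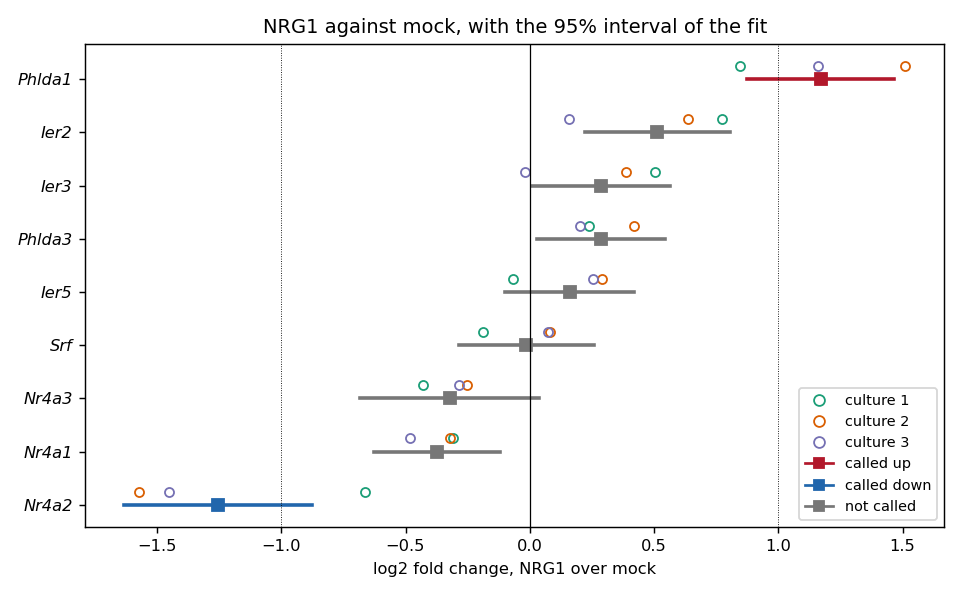
Log2 fold change of NRG1 over mock (horizontal axis) for each of the 9 tested genes, with squares and bars for the fitted value and its 95% interval, open circles for the ratio within each culture, and dotted lines at a 2-fold change. The fitted values of Phlda1 (1.17) and Nr4a2 (-1.25) lie beyond the dotted lines, but their intervals cross them. The intervals of the other 7 genes stay inside the lines.

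Nr4a2 was also set against its relatives in the counts of each library. For every 100 Nr4a1 counts there were 21.3, 14.6 and 7.75 Nr4a2 counts in mock samples and 16.6, 6.09 and 3.91 with NRG1. The ratio was lower with NRG1 in each culture, with log2 changes of -0.36, -1.26 and -0.99 in cultures 1, 2 and 3 (mean -0.87, SD 0.46), and the exact two-sided sign-flip test gave p = 0.25, which is its smallest possible value here. Nr4a3 per 100 Nr4a1 counts went from 10.1, 4.03 and 4.69 to 9.29, 4.22 and 5.37, a mean log2 change of 0.05 (SD 0.16), without a common direction. Of all reads on the NR4A genes, Nr4a2 took 16.2% (95% Wilson interval 14.4 to 18.3), 12.3% (11.1 to 13.6) and 6.90% (6.24 to 7.62) in the mock samples. With NRG1 it took 13.2% (11.3 to 15.4), 5.52% (4.70 to 6.48) and 3.58% (3.07 to 4.17). The intervals, which cover counting error only, overlapped between mock and NRG1 in culture 1 and were apart in cultures 2 and 3.

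**Figure D3:**
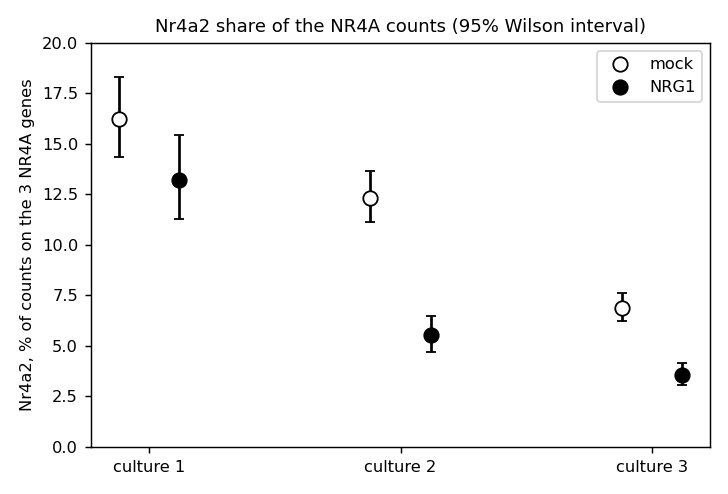
Nr4a2 as a percentage of the reads on the 3 NR4A genes (vertical axis) for mock (open) and NRG1 (filled) samples of each culture, with 95% Wilson intervals of the counts. The share was lower with NRG1 in each culture, from 16.2% to 13.2% in culture 1 and from 12.3% to 5.52% in culture 2.

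Of the IER genes, Ier2 came nearest to the threshold. Its levels were 43.2, 57.1 and 76.0 CPM in mock samples and 73.9, 88.9 and 85.0 CPM with NRG1. NRG1 samples were higher within each culture, but the mock sample of culture 3 exceeded the NRG1 sample of culture 1, so the groups overlapped. Its log2 fold change was 0.51 (SE 0.14, 95% interval 0.22 to 0.80, adjusted p = 0.0146), and its size differed between cultures, at 0.77, 0.64 and 0.16. Ier2 was called, with an adjusted p of 0.00494, when culture 3 was left out. Without culture 1 its log2 fold change was 0.39 (adjusted p = 0.111, edgeR quasi-likelihood), and it was not called.

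Ier3, a survival gene downstream of ERK, stood at 124.0, 134.1 and 175.4 CPM in mock samples and at 175.8, 175.4 and 173.0 CPM with NRG1. The NRG1 samples were nearly equal (SD 1.53 CPM), and the mock sample of culture 3 was already at their level. The fit gave a log2 fold change of 0.29 (95% interval 0.01 to 0.56, adjusted p = 0.126), and 0.18 without culture 1. Ier5, which acts with heat shock factor, had 93.0, 87.0 and 87.7 CPM in mock samples and 88.8, 106.3 and 104.6 CPM with NRG1. Culture 1 was slightly lower and the others higher with NRG1, and the log2 fold change of 0.16 had a 95% interval of -0.10 to 0.42 (adjusted p = 0.368). Without culture 1 the value for Ier5 was 0.27, with an adjusted p of 0.307. Its 3 mock samples lay close together, between 87.0 and 93.0 CPM.

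Srf itself was not detectably different between NRG1 and mock. It stood at 80.6, 31.8 and 41.8 CPM in mock samples and at 70.7, 33.7 and 44.0 CPM with NRG1. Both libraries of culture 1 were far above the rest, and the groups overlapped entirely. With NRG1 the log2 fold change was -0.01 (95% interval -0.29 to 0.26, adjusted p = 0.947), and 0.08 without culture 1, so a change of 2-fold lay outside the interval in either direction.

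Srf, Nr4a1 and Phlda3 differed more between cultures than between NRG1 and mock. In a test of the same model for any difference among the 3 cultures, chosen after the data had been seen, these 3 of the 9 genes passed an adjusted p of 0.01, beside 23.4% of all genes tested. Their adjusted p-values were 6.5e-05 for Srf, 1.0e-05 for Nr4a1 and 0.000114 for Phlda3 (edgeR quasi-likelihood). The culture with the highest mean level exceeded that with the lowest 2.31-fold in Srf, 2.53-fold in Nr4a1 and 2.08-fold in Phlda3. The corresponding ratio was 1.64 for Nr4a2, 1.38 for Ier2, 1.27 for Phlda1 and 1.06 for Ier5, none of which passed. Srf was highest, and Nr4a1 and Phlda3 lowest, in culture 1, the culture with the high fibroblast and smooth muscle markers, and the part of those markers in these levels was not tested.

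**Figure D4:**
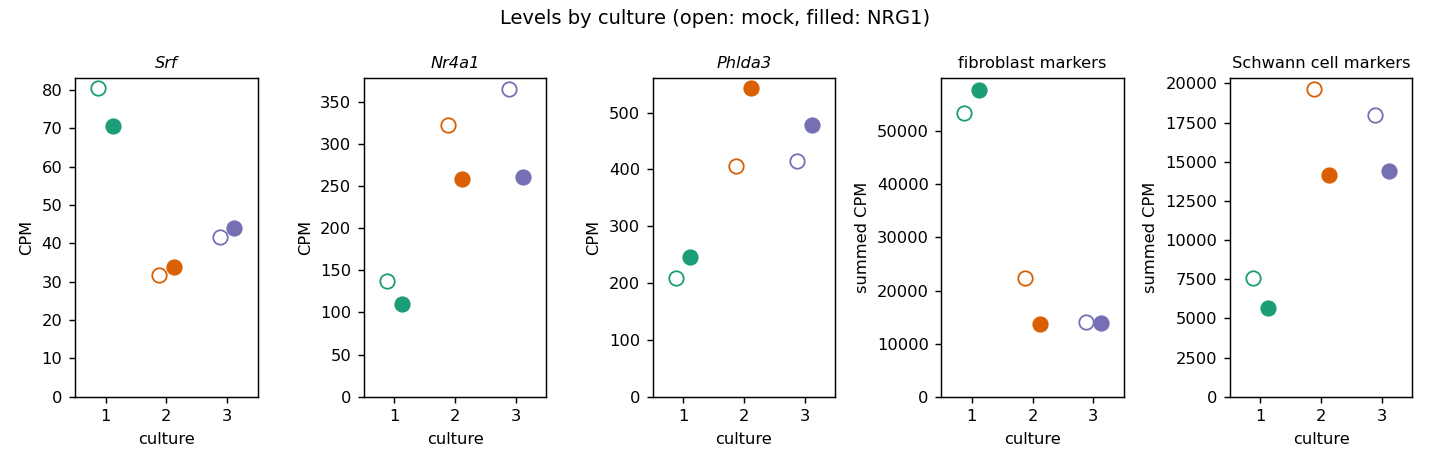
Level of Srf, Nr4a1 and Phlda3 in CPM and the summed CPM of the fibroblast and Schwann cell markers (vertical axes, from 0) by culture, with open circles for mock and filled circles for NRG1. In culture 1, Srf (80.6 and 70.7 CPM) and the fibroblast markers are highest and Nr4a1, Phlda3 and the Schwann cell markers lowest.

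The genes around these families were then described in lists drawn up with earlier results of these data known, with 11.8% of all genes tested called in either direction as the background. Among the AP-1 factors, the Fos and Jun proteins of the immediate-early response, 1 of 7 tested was higher and 1 lower. Fosl1 rose (log2 fold change 1.69, adjusted p = 8.0e-06) and Fos fell (-1.61, adjusted p = 2.2e-06). Of 5 tested EGR factors and Nab corepressors none rose, while Egr2, the regulator of myelin genes, fell by 1.71 and Egr1 by 1.13 on the log2 scale (adjusted p = 8.5e-05 and 0.00711). MAP kinase phosphatases, which switch off ERK and its relatives, were higher in 3 of 9, led by Dusp6 (1.23, adjusted p = 2.0e-05) and Dusp4 (1.15, adjusted p = 5.7e-05), and lower in none.

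Other immediate-early genes went both ways, with 4 of 23 tested higher and 4 lower. Rhob, a small GTPase, rose by 0.83 and Ier5l, a relative of Ier5, by 0.69 on the log2 scale (adjusted p = 0.000740 and 0.000915). Ier5l stood at 53.5, 57.3 and 54.4 CPM in mock samples and 91.5, 87.7 and 87.1 CPM with NRG1, so unlike Ier5 its groups were apart. Plk2, a polo-like kinase, fell by 0.93 and Btg2, an antiproliferative gene, by 1.63 (adjusted p = 0.000224 and 0.00192).

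The partners and targets of SRF were described next. None of 3 tested SRF partners passed the threshold, and among 17 tested actin genes under SRF and MRTF, 1 was higher and 2 were lower, or 17.6% called, with a median log2 fold change of 0.09. Pdlim7, an actin-associated adaptor, rose by 0.48, while Ankrd1 fell by 1.29 and Tpm1, a tropomyosin, by 0.54 (adjusted p = 0.00926, 0.00176 and 0.00736). Tpm1 was at 1412 and 1104 CPM in culture 1 and at most 564.8 CPM elsewhere, and thus highest in culture 1, as were Srf and the smooth muscle markers. CREB factors, coactivators and targets included 1 higher and 2 lower genes of 16 tested. The lower gene Per1 had been counted among the other immediate-early genes as well. Vgf, a secreted neuropeptide precursor, rose from 1.11 to 6.41 CPM on average (log2 fold change 2.47, adjusted p = 9.3e-05), from 3 counts in the mock sample of culture 1, and Rgs2 and Per1, both cAMP-inducible, fell by 1.31 and 0.78 (adjusted p = 0.00109 and 0.00531). The median of that list was -0.28. The shrunken log2 fold change of Vgf from DESeq2 was 1.51, and with at least 10 counts required in every sample Vgf was not tested.

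Retinoid X receptors form heterodimers with NR4A1 and NR4A2, and 1 of the 3 was called. Rxrg had 26.9, 30.9 and 43.6 CPM in mock samples and 8.40, 16.1 and 18.6 CPM with NRG1. As for Nr4a2, all NRG1 samples lay below all mock samples, and the log2 fold change was -1.26 (SE 0.16, adjusted p = 0.000101). The p53 target list, which holds Plk2 and Btg2 again, counted 2 higher and 5 lower genes of 21 tested. The exonuclease gene Aen rose by 0.53 (adjusted p = 0.00678), whereas Gadd45a, a growth arrest gene, fell by 1.38 (adjusted p = 3.9e-05). In Akt and insulin receptor signalling 1 of 13 was lower and none higher, the adaptor gene Irs2, which fell by 0.68 (adjusted p = 0.00488).

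Several of these related calls were lost without 1 culture. Pdlim7 lost its call without any 1 of them (adjusted p = 0.0161, 0.0189 and 0.0719 without cultures 1, 2 and 3), Aen without culture 1 (0.0454) or 3 (0.0443), and Per1 without culture 2 (0.0174). Without cultures 2 and 3, in turn, the adjusted p was 0.0376 and 0.0353 for Egr1, 0.0102 and 0.0192 for Ankrd1, 0.0253 and 0.121 for Tpm1, and 0.0238 and 0.0556 for Irs2. Btg2 was at 0.0225 without culture 3. Egr1 was also not called with robust empirical Bayes (0.0995), nor Aen by DESeq2 with the block (0.0103). Without culture 1 all named related genes other than Pdlim7 and Aen were called, and the log2 fold changes of Btg2 and Egr1, the latter with a ratio of -0.03 within culture 1, were -2.31 and -1.70. The smallest adjusted p over all genes was 5.8e-48 in that edgeR fit and 6.1e-08 with all cultures, so its calls are not stronger evidence. The actin list then had 0 genes higher and 0 lower without culture 2 or without culture 3, and the p53 target list 0 higher without culture 1. Without the block none of the named related genes was called by edgeR.

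**Figure D5:**
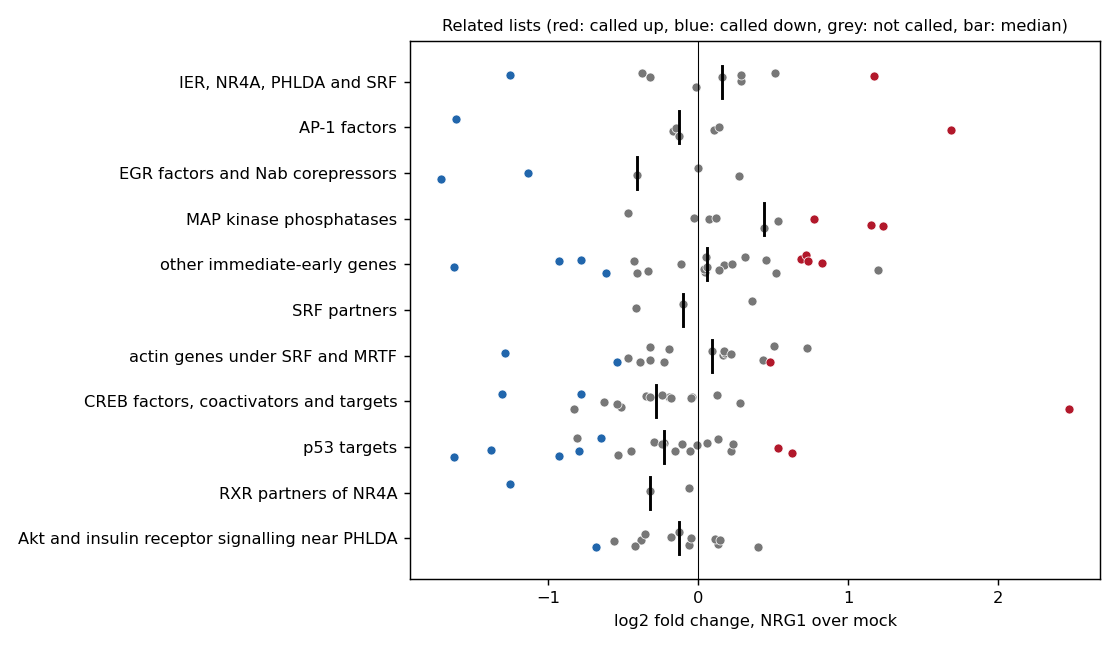
Log2 fold change of NRG1 over mock (horizontal axis) for every tested gene of each list, coloured red where called higher, blue where called lower and grey otherwise, with a bar at the median of the list. The median was 0.16 for the 9 genes of the IER, NR4A, PHLDA and SRF list, 0.44 for the MAP kinase phosphatases and -0.40 for the EGR factors.

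The pattern of Phlda1 over the 6 samples was shared most closely by 3 genes, found by Pearson correlation of log2 CPM with 9731 other tested genes. They were Map2k1 (r = 0.996), which encodes the kinase MEK1 that activates ERK, Fkbp4 (r = 0.995), a co-chaperone of steroid receptors, and Ctbp2 (r = 0.990), a transcriptional corepressor. These coefficients describe 6 samples of 2 groups and carry no test. Map2k1 was at 222.6, 184.7 and 215.1 CPM in mock samples and at 295.2, 302.7 and 339.4 CPM with NRG1. As in Phlda1, the lowest mock level was in culture 2 and the highest NRG1 level in culture 3. The log2 fold change was 0.59 for Map2k1, 0.69 for Fkbp4 and 0.88 for Ctbp2 (adjusted p = 0.00326, 0.00119 and 0.000288), against 1.17 for Phlda1.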

How the data were processed

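Poly(A) RNA from 3 mock and 3 NRG1 samples (TruSeq RNA kit, Illumina sequencing) was mapped by the authors to rn5 with TopHat2 2.0.10 and counted per RefSeq gene with HTSeq, according to the methods and the submitters' processing notes. The HTSeq version and strand setting were not given in the sources used here. The authors deposited raw read counts, without normalization. Lines that name no gene stayed out of library sizes and tests. They held 22.9% to 26.1% (no feature), 24.5% to 29.9% (not unique) and 0.120% to 0.175% (ambiguous) of the alignments, and genes 47.0% to 49.9%.

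The counts were analysed with edgeR 4.0.16 in R 4.3.3: filterByExpr (minimum count 10), which removed 7587 of 17327 symbols, TMM scaling, and a quasi-likelihood fit with culture as block, adjusted over 9740 genes. DESeq2 1.42.0, the kind of test used in the study, was an alternative. A pair of samples with the same number came from 1 independent cell preparation, and their deviations from the group means correlated at 0.906, 0.673 and 0.810 across genes. Mismatched samples of cultures 2 and 3 also correlated, at 0.514 and 0.512, and those of culture 1 with the others at -0.797 to -0.706. Same-group libraries differed beyond sampling noise (chi-square per degree of freedom 22.9 to 248.1). Log2 ratios within cultures used a prior count of 2. In simulated counts with 200 of 9740 genes changed, 95 of 100 changes of log2 size 1 and 34 of 100 of size 0.6 were called, with 0 false calls. Changes were planted only in well-counted genes, with the same dispersion for every gene and the same response in every culture. These rates therefore need not hold in the real counts.

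The members and lists were chosen with earlier results of these data known. Named were all 10 members, up to 2 called genes per direction of each related list with the smallest adjusted p, the 2 most abundant markers of each cell type, other markers picked after their values were seen, and the 3 genes most like Phlda1. Some genes that this rule names are not reported here. Alternatives were the fit without block, RLE scaling, DESeq2 with and without shrunken fold changes, no or a stricter low-count filter, robust empirical Bayes, an adjusted p of 0.05, leaving out each culture, and, added after seeing the data, DESeq2 without the block.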

Additional observations from a re-analysis of the deposited data

How the results depend on the processing

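Phlda1 and Nr4a2 were called in each alternative fit that kept the culture block, with log2 fold changes of 1.01 to 1.34 and -1.52 to -1.07, including the fits without culture 1, 2 or 3. The number of the 9 genes called higher, 1 in the fit described, was 2 without a low-count filter and at an adjusted p of 0.05, where Ier2 was added, and 1 to 2 when a culture was left out, Ier2 being added without culture 3. With no replicate block it was 0 higher and 0 lower, and DESeq2 with no replicate block, chosen after seeing the data, gave 0 lower, with an adjusted p of 0.000117 for Phlda1 and 0.0196 for Nr4a2. At an adjusted p of 0.05, 2 genes were lower. Srf, near 0 throughout, changed sign with DESeq2 with the block (0.0028), with shrunken fold changes (0.0011) and without culture 1, over a range of -0.054 to 0.081 when a culture was left out. Counted over members and alternatives, 98 fold changes kept their direction and side of the threshold, 4 newly passed it, 3 no longer did and 3, all of Srf, changed sign. Over all genes tested, 615 were higher and 537 lower, against 408 and 253 without culture 3, 848 and 857 without the filter, 1124 and 1136 at 0.05, and 115 and 63 with DESeq2 and no block. Phlda2 stayed at or under 3 counts and was not tested in the fit described. From the alternatives that kept genes with so few counts, no value is given for it. In the simulation changes of log2 size 0.6 were often missed, so a gene that was not called is not thereby shown to be unaffected. The cause of these differences was not tested.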
